A study of Mus musculus with 2 samples.

Results

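The genes described here are 10 members of the interleukin 1 (IL1) and interleukin 6 (IL6) cytokine families, chosen by name from the 32285 genes counted in both libraries. They are the IL1 ligands Il1a and Il1b, the receptor antagonist Il1rn, the signalling receptor Il1r1, the decoy receptor Il1r2, the IL6 family ligands Il6, Il11, Lif and Osm, and the oncostatin M receptor subunit Osmr. All 10 had UMIs (unique molecular identifiers, each standing for 1 captured transcript) in both libraries. They were followed across cell types named from marker genes, in injured against uninjured tissue, and from the cells that carried a ligand to the cells that carried a receptor.

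The data were 2 single-cell RNA-seq libraries of soft tissue around the mouse Achilles tendon, 1 per group. Both came from mice carrying Hoxa11 wt/CreERT2 together with the alleles R26 wt/LSL-rtTA and TetO-Vegfd, in which Hoxa11-driven inducible Cre switches on a transactivator that in turn drives Vegfd, so the uninjured library carried the transgene as well. The injured library was the site of a burn/tenotomy (B/T, a burn together with cutting of the Achilles tendon), a procedure that leads to heterotopic bone, 7 days later. The uninjured library was the contralateral tendon of burned animals, not tissue of untreated ones. Mice of both sexes were 8 to 12 weeks old at the procedure, with 5 per group in the design text. The labels do not say whether a library pooled several mice, and libraries of the control genotype were not analysed here. With 1 library per group no difference has a replicate check, no p-value is given, and every interval is an exact 95% interval that covers counting error only.

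IL1 alpha and IL1 beta bind the same receptor, IL1R1, which then recruits an accessory protein, IL1RAP, and activates NF-kappaB. The antagonist IL1RN occupies IL1R1 without signalling, and IL1R2 binds IL1 but lacks a signalling domain. IL6, IL11, LIF and oncostatin M all signal through the shared subunit gp130 (Il6st) and mainly through STAT3, each by way of its own partner receptor. In injured tissue myeloid cells are the usual source of IL1, and stromal and endothelial cells are among the cells that answer it by making IL6 and chemokines.

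Several members lie side by side in the genome. On mm10 (GRCm38, GENCODE M21), Il1a (chr2:129299610-129309972, minus strand) and Il1b (chr2:129364570-129371139, minus strand) were 54.6 kb apart. Il1r2 (chr1:40074079-40125231, plus strand) and Il1r1 (chr1:40225080-40317257, plus strand) were 99.8 kb apart. Osm (chr11:4236420-4241026, plus strand) and Lif (chr11:4257557-4272514, plus strand) were 16.5 kb apart. The others were Il1rn (chr2:24336853-24351494, plus strand), Il6 (chr5:30013114-30019981, plus strand), Il11 (chr7:4772373-4782859, minus strand) and Osmr (chr15:6813577-6874969, minus strand). After injury Il1a and Il1b lay in the same cells, neutrophils and phagocytes. The other neighbours differed, since injured Il1r2 lay mainly in neutrophils and Il1r1 in stromal and endothelial cells, and Osm in phagocytes and neutrophils while Lif lay in mesenchymal cells, with the values given with each gene.

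The 250 bases before the start are shown for the 3 genes on which the results turn most, the leading ligand Il1b, its receptor Il1r1 and the stromal cytokine Il6, since Il1r1 and Il6 were each other's most similar gene across cell types. The sequences are RefSeq's on GRCm38.p6, written 5′ to 3′ on the gene's strand, with matches to the searched motifs in capitals. RefSeq entries matched 9 of the 10 members, and Osm had none.
Il6, chr5:30012864-30013113, plus strand: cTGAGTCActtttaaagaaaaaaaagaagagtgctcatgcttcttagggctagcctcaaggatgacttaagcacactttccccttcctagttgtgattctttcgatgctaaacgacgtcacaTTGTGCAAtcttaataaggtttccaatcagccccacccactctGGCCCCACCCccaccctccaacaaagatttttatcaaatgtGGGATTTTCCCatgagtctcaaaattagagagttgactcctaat
Il1r1, chr1:40224830-40225079, plus strand: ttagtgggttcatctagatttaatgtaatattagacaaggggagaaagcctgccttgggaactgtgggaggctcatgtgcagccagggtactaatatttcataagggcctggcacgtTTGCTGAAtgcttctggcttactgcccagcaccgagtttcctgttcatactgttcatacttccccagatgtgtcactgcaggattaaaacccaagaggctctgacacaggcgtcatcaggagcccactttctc
Il1b, chr2:129371140-129371389, minus strand: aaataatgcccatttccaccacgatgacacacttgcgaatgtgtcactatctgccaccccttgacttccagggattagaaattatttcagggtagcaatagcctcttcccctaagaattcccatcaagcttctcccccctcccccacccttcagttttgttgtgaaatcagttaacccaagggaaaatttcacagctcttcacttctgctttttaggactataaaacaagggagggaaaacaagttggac
The motifs were the NF-kappaB core (GGG and CC with any 5 bases between them), TTGCNNAA (C/EBP), TGANTCA (AP-1) and TTCNNNGAA (STAT), each searched on both strands. Il6 held an AP-1 match 249 bases before its start, a C/EBP match at 128, and NF-kappaB matches at 85, 44 and 43, of which the last pair overlap. Il1r1 held 1 C/EBP match, 133 bases before its start, and Il1b held none of the 4 patterns in this window. Of 32851 promoters of the same length, 45.8% held the NF-kappaB pattern, 9.56% the C/EBP pattern, 6.75% the AP-1 pattern and 7.02% the STAT pattern, so these matches describe the letters and are not shown to be binding sites.

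The filters left 9164 cells in the injured library (median depth 17494 UMIs) and 4702 in the other (median depth 15771.5 UMIs). The makeup of the libraries differed. The injured one held 2757 mononuclear phagocytes, 2335 mesenchymal cells, 1222 vascular endothelial cells, 997 neutrophils, 456 pericytes or smooth muscle cells, 309 keratinocytes, 246 dendritic cells and 225 T or NK cells. The uninjured one held 1656 vascular endothelial cells, 1278 mesenchymal cells, 411 phagocytes, 274 satellite cells, 226 pericytes or smooth muscle cells, 101 dendritic cells and 4 neutrophils. Tendon cells with their defining markers were present in the uninjured library, as a cluster of 376 cells, while 23 injured cells fell in it. The kept cells of the libraries shared 8 cell barcodes. Injured mesenchymal cells were deeper, with a median of 45034 UMIs against 19728, so shares of cells are given after thinning each cell to 2000 UMIs.

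Over all cells the IL1 genes were more abundant in the injured library, and the largest part of its Il1b and Il1r2 UMIs lay in neutrophils, which were nearly absent from the uninjured one. Il1b made up 361.8 of every 1000000 UMIs (counts on this scale are written CPM) in the injured library and 39.2 CPM in the uninjured one, 9.22-fold apart (interval 8.91 to 9.54). Il1r2 was at 90.0 and 6.69 CPM, Il1rn at 34.8 and 2.75 CPM, and Osm at 16.5 and 2.04 CPM. The receptor Il1r1 differed less, with 197.3 against 85.9 CPM, or 2.30-fold. Il6 was at 53.9 and 26.8 CPM. Osmr was the only member lower after injury, at 60.6 against 95.2 CPM, which is 0.637-fold. Il1a, Il11 and Lif stayed under 5 CPM in both libraries. On a log2 scale with 5 CPM added, 5 members (Il1b, Il1r2, Il1rn, Il1r1 and Osm) were more than 2-fold higher and 0 were lower. Of all 4332 genes at 50 CPM or more in a library, 6.19% were that much higher and 8.59% that much lower, and the median log2 ratio was 1.02 over the members against a value near 0 over those genes. The members were counted without that floor, and Il1rn and Osm were under it. A library's sum moves with its cell types, and fewer cells of a type cannot be told apart from less RNA per cell in such sums. Neutrophils made up 10.9% of injured and 0.0851% of uninjured cells.

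**Figure D1:**
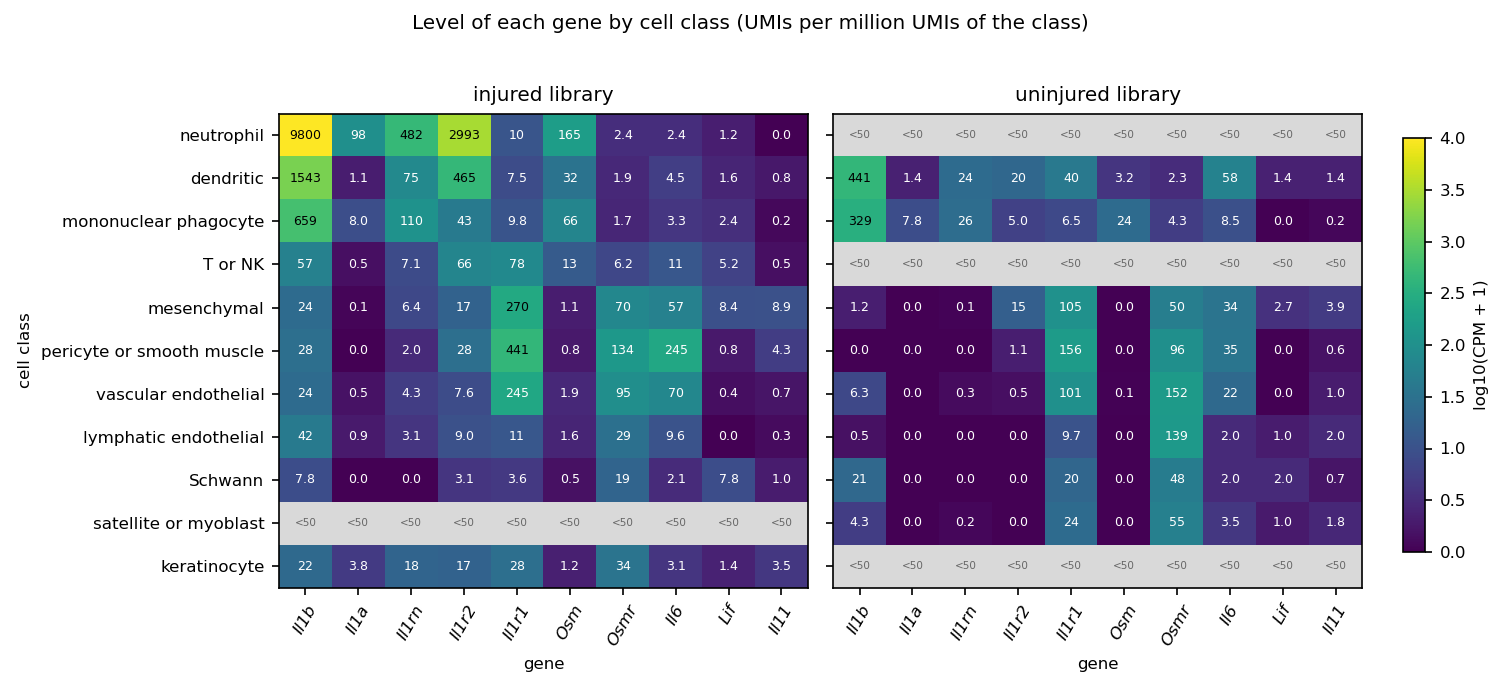
Level of each member in CPM (numbers in the cells, colour on a log10 scale of CPM + 1) by cell class and library, with classes under 50 cells left grey. Il1b, Il1r2, Il1rn and Osm stand highest in injured neutrophils, while Il1r1 and Il6 stand highest in injured pericytes or smooth muscle cells, at 441 and 245 CPM.

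Il1b, the principal secreted IL1, was a transcript of myeloid cells in both libraries. Injured neutrophils carried 9800.5 CPM of it, from 49535 UMIs, and 99.7% of them held at least 1 Il1b UMI after thinning. Dendritic cells followed with 1543 CPM in the injured and 441 CPM in the uninjured library, which is 3.50-fold. Mononuclear phagocytes had 659 and 329 CPM, or 2.00-fold (interval 1.92 to 2.09). The share of phagocytes with an Il1b UMI was 37.7% after injury and 17.9% without it, and that of dendritic cells was 69.2% and 32.7%. By origin, 57.2% of the injured library's Il1b UMIs lay in neutrophils, 30.7% in phagocytes and 6.67% in dendritic cells. In the uninjured library phagocytes held 60.9% and dendritic cells 28.03%.

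Within phagocytes the Il1b level depended on the cluster more than on the library. A monocyte cluster with Plac8 and Ccr2 among its leading genes carried 1827 CPM in 915 injured cells and 1334 CPM in 31 uninjured cells, 1.37-fold apart. A macrophage cluster led by MHC class II genes, with 357 injured and 208 uninjured cells, had 512 and 434 CPM, or 1.18-fold. A cluster led by the resident macrophage genes Mrc1 and Cd163 had 37.9 and 11.01 CPM, or 3.44-fold. The 2.00-fold difference of the whole class therefore stood beside a change in which clusters filled it, and within the monocyte and macrophage clusters with most Il1b it was smaller.

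Il1a, the other agonist, was scarce. Injured neutrophils had 97.7 CPM, with an Il1a UMI in 8.97% of thinned cells, and phagocytes had 8.00 CPM in the injured and 7.77 CPM in the uninjured library. Neutrophils held 54.4% and phagocytes 35.5% of the injured library's Il1a UMIs. Keratinocytes, a known source of IL1 alpha, were at 3.80 CPM from 44 UMIs, of which 90.9% lay in 10 cells.

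Il1rn, which encodes the antagonist that blocks IL1R1, followed the same cells as Il1b but in another order of weight. Injured neutrophils had 482 CPM, and 46.5% of them held an Il1rn UMI. Phagocytes had 110.4 CPM after injury and 25.9 CPM without it, 4.26-fold apart (interval 3.65 to 5.00), with a UMI in 14.7% and 3.23% of cells. Dendritic cells had 75.1 and 24.0 CPM, or 3.13-fold. Phagocytes were the larger source of this antagonist, with 53.5% of the injured library's Il1rn UMIs against 29.2% in neutrophils. The fold again differed between phagocyte clusters, with 95.99 against 28.1 CPM (3.42-fold) in the macrophage cluster and 189 against 144 CPM (1.32-fold) in the monocytes.

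Set against the agonist, there were 0.167 Il1rn UMIs per Il1b UMI in injured phagocytes and 0.079 in uninjured ones. The ratio was 0.049 in injured neutrophils and 0.049 and 0.054 in injured and uninjured dendritic cells. Keratinocytes had the highest ratio of the injured classes, with 0.821 Il1rn per Il1b UMI. Within phagocytes, the monocyte cluster held 2232 Il1rn and 21548 Il1b UMIs after injury and 70 and 650 without it, in nearly the same proportion. The MHC class II cluster held 461 and 2460 after injury, and 90 and 1391 without it. The class ratio also took in clusters of 835 and 380 injured cells that held 10 uninjured cells each.

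Il1r2, the decoy receptor, was the member with the largest difference within dendritic cells. They carried 465 CPM in the injured library and 20.4 CPM in the uninjured one, 22.9-fold apart (interval 17.0 to 31.5), and 44.2% against 3.96% of them held an Il1r2 UMI. Phagocytes had 42.9 and 4.97 CPM, which is 8.62-fold (interval 6.09 to 12.6), and their monocyte cluster alone had 111 and 10.3 CPM. Neutrophils exceeded both classes, with 2993 CPM and a UMI in 94.2% of cells, and held 70.2% of the injured library's Il1r2 UMIs. The uninjured library had a different main source, since mesenchymal cells held 70.5% of its Il1r2 UMIs. Their class level was 17.2 and 15.2 CPM, but different clusters filled the class in each library. In the Clec3b and Pi16 fibroblast cluster, which held cells of both, Il1r2 was at 46.1 and 22.96 CPM, or 2.01-fold (interval 1.62 to 2.48).

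Decoy and signalling receptor were divided between cell classes. There were 291 Il1r2 UMIs per Il1r1 UMI in injured neutrophils (interval 222 to 390) and 62.2 in injured dendritic cells, where the uninjured ratio was 0.511. Mesenchymal cells had 0.064 and 0.144 in the injured and uninjured library, and injured pericytes or smooth muscle cells 0.064. After injury the decoy was the predominant IL1 receptor transcript of neutrophils, dendritic cells and phagocytes (4.38 Il1r2 per Il1r1 UMI), the classes with most Il1b, and the signalling receptor was that of the stroma. Of 970 thinned neutrophils, 911 (93.9%) held both an Il1b and an Il1r2 UMI, and of 240 injured dendritic cells 90 (37.5%) did.

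**Figure D2:**
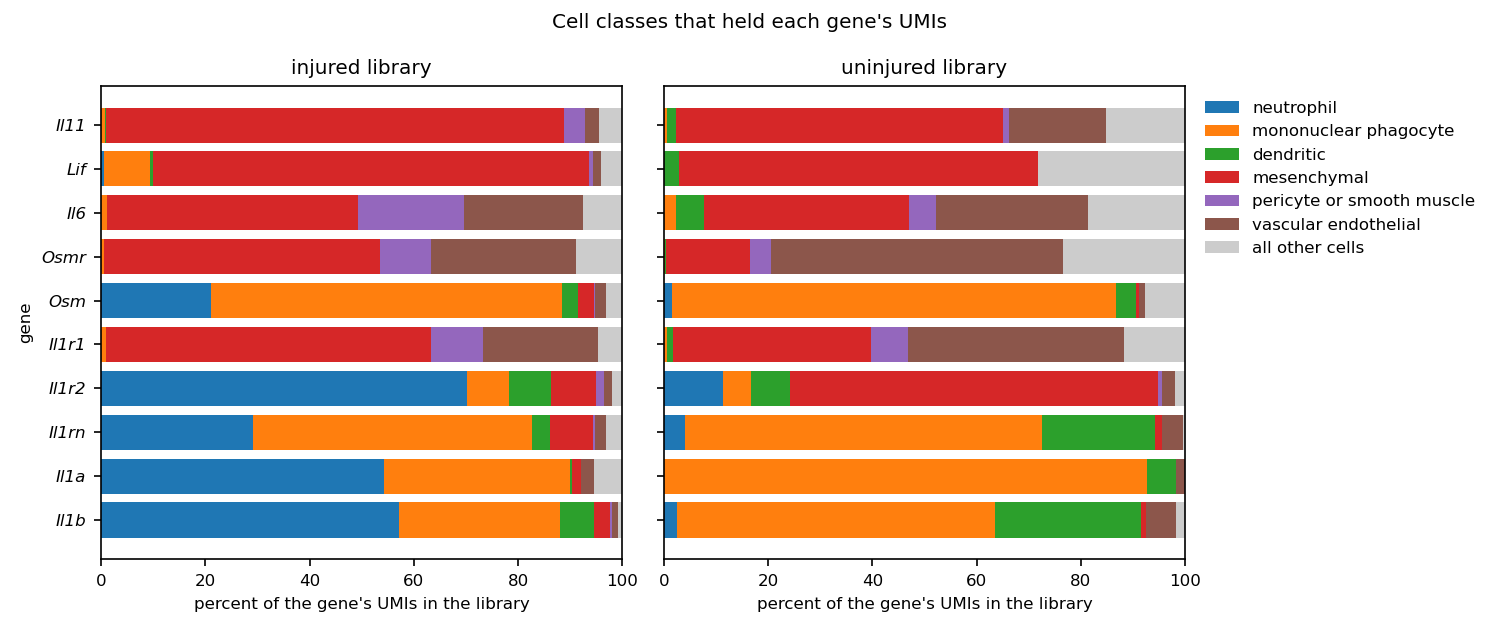
Share of each member's UMIs, in percent, by the cell class that held them, in each library. Neutrophils hold 57.2% of injured Il1b and 70.2% of injured Il1r2, phagocytes 53.5% of injured Il1rn and 67.3% of injured Osm, and mesenchymal cells 62.4% of injured Il1r1 and 87.7% of injured Il11.

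Low Il1b, Il1r2 and Il1rn levels also appeared in classes not known as their source. Injured mesenchymal, vascular endothelial and pericyte or smooth muscle cells had 24.1, 23.9 and 27.5 CPM of Il1b, against 1.20, 6.34 and 0 CPM without injury. These are 0.246%, 0.244% and 0.281% of the neutrophil level. The neutrophil marker genes S100a8 and S100a9 stood at 0.153% and 0.156% of their neutrophil level in the mesenchymal cells. They were at 0.063% and 0.067% in the vascular cells, and at 0.273% and 0.244% in the pericytes. Il1b was thus near S100a8 and S100a9 in pericytes and above them in mesenchymal and vascular cells. An Il1b UMI was found in 2.69%, 2.61% and 2.53% of thinned cells of the 3 classes, against 3.03% of Schwann cells and 3.20% of T or NK cells. Within the vascular class the Il1b UMIs lay mostly in the cycling cluster, with 698 of 1014 injured and 150 of 197 uninjured UMIs, at 59.2 and 52.04 CPM, and the other vascular clusters were under 14 CPM. Many cells of that cluster lost the vascular name when each library was clustered alone. The 10 neutrophil markers summed to 122 CPM in injured and 23.2 CPM in uninjured mesenchymal cells, and to 71209 CPM in neutrophils. Il1r2 stood above S100a8 and S100a9 in pericytes, at 0.942% of the neutrophil level, and in mesenchymal cells, at 0.573%. Another neutrophil marker, G0s2, stood at 0.983% in pericytes and 0.504% in mesenchymal cells, above Il1b in both and above Il1r2 in pericytes. The markers Retnlg (0.216% and 0.098%), Csf3r (0.214% and 0.175%) and Cxcr2 (0.152% and 0.172%) were lower than Il1b in these 2 classes. The part of free neutrophil RNA in these levels was not tested. Dendritic cells and phagocytes were well above such values, with Il1b at 15.7% and 6.73% of the neutrophil level beside S100a8 at 0.464% and 0.255%. Their neutrophil markers summed to 285 and 8.14 CPM in injured and uninjured dendritic cells and to 212 and 77.7 CPM in phagocytes.

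**Figure D3:**
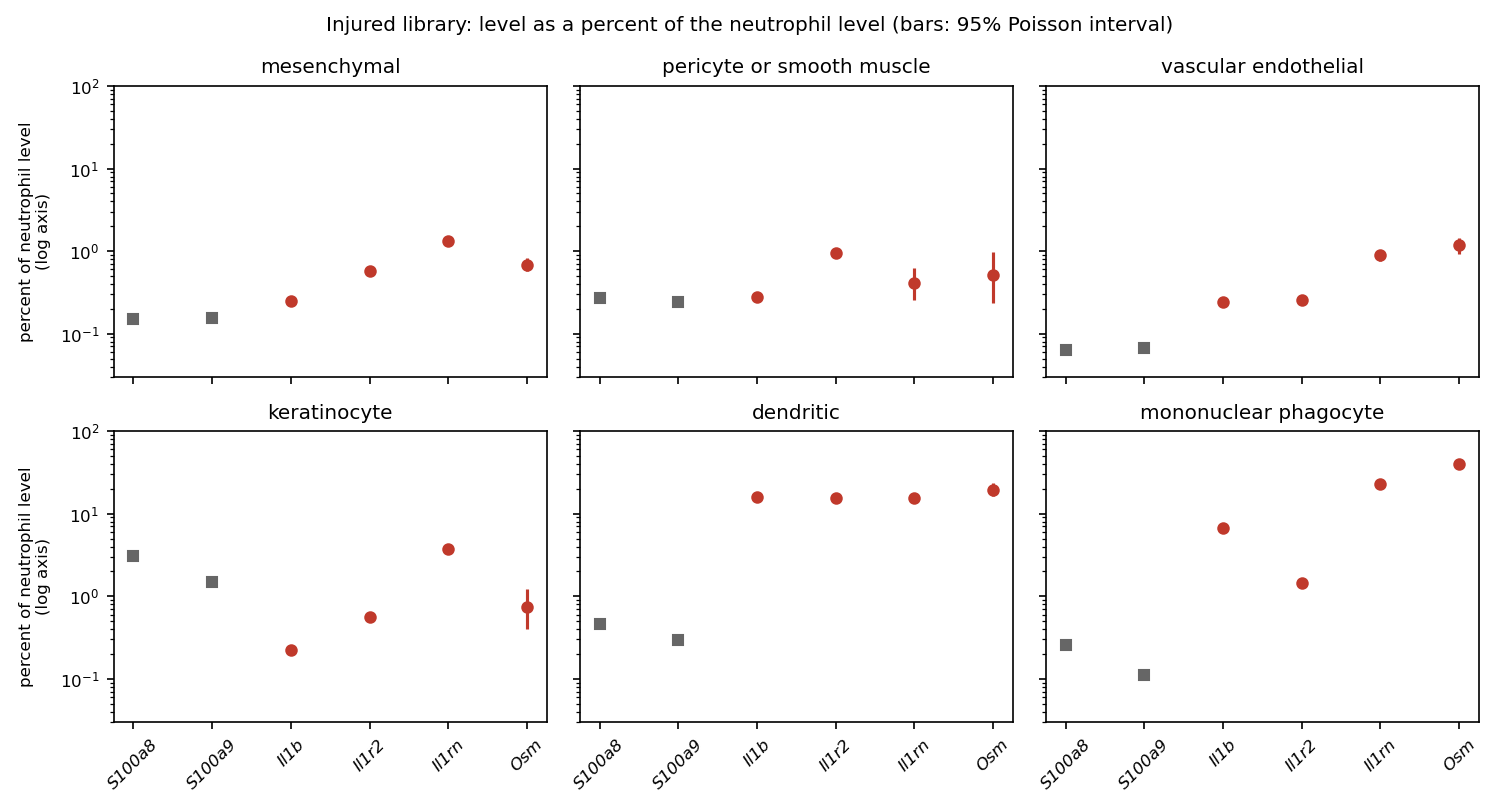
Level in 6 injured cell classes as a percent of the level in injured neutrophils (log axis, bars are Poisson intervals), for the neutrophil genes S100a8 and S100a9 (squares) and for Il1b, Il1r2, Il1rn and Osm (circles). Il1b lies at 0.244% to 0.281% in mesenchymal, pericyte or smooth muscle and vascular endothelial cells, and at 15.7% and 6.73% in dendritic cells and phagocytes, far above S100a8 and S100a9.

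Il1r1, the receptor through which IL1 signals, was a transcript of mural, mesenchymal and endothelial cells, and it was more than 2-fold higher in all 3 of these classes after injury. Pericytes or smooth muscle cells had 441 CPM in the injured and 156 CPM in the uninjured library, 2.84-fold apart (interval 2.60 to 3.11). Mesenchymal cells had 269.7 and 105 CPM, or 2.56-fold (interval 2.47 to 2.66). Vascular endothelial cells had 244.5 and 101 CPM, or 2.41-fold. In the injured library the order was pericyte or smooth muscle, mesenchymal, vascular endothelial, T or NK and keratinocyte, with intervals that did not overlap, while mesenchymal and vascular endothelial cells overlapped in the uninjured one. Thinned shares of cells with an Il1r1 UMI went the same way, at 48.8% and 21.5% of pericytes or smooth muscle cells, 31.7% and 17.6% of mesenchymal cells and 33.1% and 14.99% of vascular endothelial cells. In neutrophils, with 52 Il1r1 UMIs in all, the share was 1.96%.

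Within clusters that held cells of both libraries the Il1r1 differences ranged widely. The pericyte or smooth muscle cluster led by Rgs5 had 477 and 278 CPM, 1.72-fold apart, and the one led by Myh11 had 135 and 83.6 CPM, or 1.61-fold. Contractile genes such as Acta2 and Tagln were among the leading genes of both. Endothelium led by the venular genes Selp, Ackr1 and Vwf had the highest vascular level, with 729.6 CPM in 314 injured cells and 507 CPM in 178 uninjured cells, or 1.44-fold (interval 1.36 to 1.52). Endothelium led by the capillary genes Cd36 and Gpihbp1 had 54.9 and 52.9 CPM, or 1.04-fold (interval 0.85 to 1.27), measured in 130 injured and 1176 uninjured cells. The cycling cluster of the vascular class had 96.1 and 27.8 CPM, or 3.46-fold (interval 2.76 to 4.40), which is more than the class difference. With each library clustered alone, 139 of its 216 injured and 1 of its 71 uninjured cells stayed vascular. The others took other class names, with 0 unnamed, so its values are not shown to be endothelial alone. The Plvap and Aplnr cells were at 1.66-fold and the Sema3g and Cldn5 cells at 2.24-fold. This Cd36 and Gpihbp1 cluster lost its name under other settings, and the vascular Il1r1 log2 ratio of 1.23 was then no longer past 2-fold. It dropped to 0.39 with a 20% mitochondrial limit. With the members and the pathway genes listed below among the clustering genes, it dropped to 0.57. The vascular class value thus depends on whether it counts those cells.

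The mesenchymal class was filled by different clusters in the 2 libraries. Injured cells lay mainly in a Tnc and Postn cluster of 1173 cells, an Sfrp2 and C3 cluster of 797 cells and a cycling cluster, at 229, 380.3 and 216 CPM of Il1r1. Uninjured cells lay mainly in a Clec3b and Pi16 fibroblast cluster of 694 cells, with 150 CPM, in a Gdf10 fibroblast cluster of 187 cells, with 114 CPM, and in the tendon cells, with 22.1 CPM. In the Clec3b and Pi16 cluster, which also held 99 injured cells, Il1r1 was at 196 and 150 CPM, 1.31-fold apart (interval 1.19 to 1.44). Tendon cells were low in both libraries, with 28.2 CPM in the injured one.

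Il1r1 was also present in lymphocytes. Injured T or NK cells had 78.4 CPM, and 10.5% of them held an Il1r1 UMI after thinning. Most of it came from 1 cluster, with 102 CPM from 147 UMIs in 150 injured cells, where 38 uninjured cells held 1 Il1r1 UMI.

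Il6, the cytokine that gives its family its name, had its highest level in the same mural cells as Il1r1. Pericytes or smooth muscle cells had 245 CPM in the injured and 35.0 CPM in the uninjured library, 7.00-fold apart (interval 5.84 to 8.45), and 27.9% against 5.83% of them held an Il6 UMI. Vascular endothelial cells had 69.6 and 22.3 CPM, or 3.12-fold, in 10.0% and 2.44% of cells. Mesenchymal cells had 56.8 and 33.9 CPM, or 1.67-fold (interval 1.56 to 1.79), which was short of 2-fold. The injured order was pericyte or smooth muscle, vascular endothelial, mesenchymal, without overlap, and every other named class with at least 50 cells was under 12 CPM. Mesenchymal cells, which were many and deep, held 48.1% of the injured library's Il6 UMIs, against 22.9% in vascular endothelial cells and 20.3% in pericytes or smooth muscle cells. The pericyte share in the uninjured library was 5.17%.

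Within the 2 pericyte or smooth muscle clusters with cells of both libraries the Il6 difference stayed above 2-fold. The Rgs5 cluster had 259 CPM in 403 injured cells and 66.1 CPM in 84 uninjured cells, 3.91-fold apart (interval 3.13 to 4.96). The Myh11 cluster had 131 and 21.7 CPM, or 6.06-fold (interval 4.29 to 8.74). Among endothelial clusters the Selp and Ackr1 cells had 155 and 94.99 CPM (1.63-fold), the Cd36 and Gpihbp1 cells 23.5 and 11.3 CPM (2.07-fold), and cells led by Sema3g and Cldn5 had 89.1 and 15.003 CPM (5.94-fold). The shared fibroblast cluster had 56.7 and 42.7 CPM, or 1.33-fold, and of the clusters filled by injured cells the Sfrp2 and C3 cells had 90.8 CPM against 43.1 CPM in the Tnc and Postn cells. The vascular class ratio for Il6, 1.45 on the log2 scale, was 0.70 with the 20% mitochondrial limit. It was 0.78 with the members and pathway genes among the clustering genes. Immediate early genes, which respond to handling as well as to signals, had a median log2 ratio of -0.34 in pericytes or smooth muscle cells, -0.69 in vascular endothelial cells and -0.51 in mesenchymal cells. It was -0.67 in phagocytes, -0.90 in dendritic, -1.72 in Schwann and -1.96 in lymphatic endothelial cells. In the last 2 classes 13 of 16 and 14 of 15 of these genes at 10 CPM or more were more than 2-fold lower. Of all genes at 10 CPM or more, 9.33% were that much lower in Schwann and 10.3% in lymphatic endothelial cells. Their part in the levels of Il6 and the other members was not tested.

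Uninjured dendritic cells were listed above the pericytes for Il6, at 58.4 CPM against 4.54 CPM in injured ones, and they also had more Il1r1, at 39.8 against 7.48 CPM. Few cells carried these values. In the uninjured library 10 cells held 92.2% of the 129 Il6 UMIs and 84.1% of the 88 Il1r1 UMIs, with up to 40 Il6 and 43 Il1r1 UMIs in 1 cell.

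**Figure D4:**
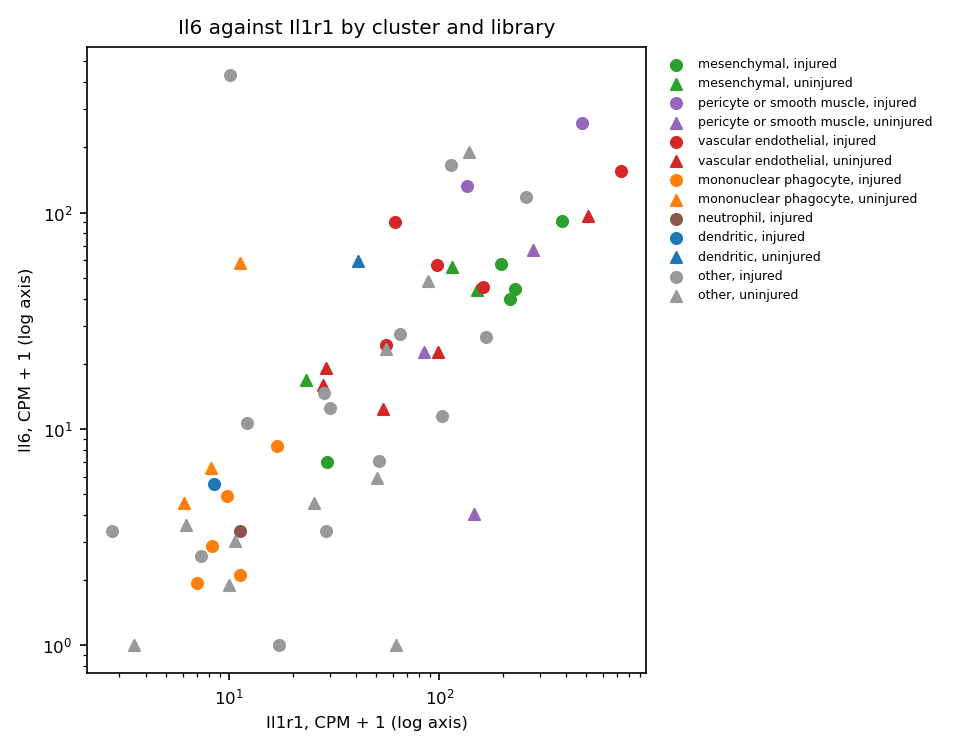
Level of Il6 against that of Il1r1 in CPM with 1 added (log axes), 1 point per cluster and library with at least 20 cells, circles for injured and triangles for uninjured, coloured by class. The injured pericyte or smooth muscle cluster led by Rgs5 lies toward the top right, with 477 CPM of Il1r1 and 259 CPM of Il6. The injured Selp and Ackr1 endothelium lies further right and lower, with 729.6 CPM of Il1r1 and 155 CPM of Il6. The grey circle at the upper left is the mast cells, with 429 CPM of Il6.

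Il11 and Lif, a fibrosis-linked cytokine and leukaemia inhibitory factor, were scarce, and most of their UMIs lay in mesenchymal cells. Mesenchymal cells held 87.7% of the injured and 62.8% of the uninjured Il11 UMIs, and 83.5% and 68.9% of the Lif UMIs. Their levels were 8.89 and 3.93 CPM for Il11, 2.27-fold apart (interval 1.86 to 2.79), and 8.37 and 2.65 CPM for Lif, or 3.15-fold (interval 2.48 to 4.06). With 5 CPM added, the log2 ratios of 0.64 and 0.81 were short of 2-fold, and only 1.19% and 1.59% of injured mesenchymal cells held a UMI of Il11 or Lif after thinning. A cycling cluster of 229 cells had the most Il11, with 26.9 CPM, but 1 mesenchymal cell held 176 of the 971 injured UMIs. Lif was at 9.99 CPM in the Tnc and Postn cluster and at 5.45 CPM in the Sfrp2 and C3 cluster. In the fibroblast cluster shared by both libraries neither was higher after injury, with Lif at 2.36 and 3.42 CPM and Il11 at 2.76 and 3.42 CPM. Injured phagocytes held 98 Lif UMIs, or 2.43 CPM, and uninjured ones 0. Against a floor of 3 counts this was 5.21-fold higher, and the lower end of the exact interval was 4.16-fold. With 5 CPM added, the log2 ratio of 0.57 was short of 2-fold. By level, Lif did not set mesenchymal cells apart. Injured Schwann cells had 7.75 CPM (15 UMIs) and T or NK cells 5.23 CPM (11 UMIs), with intervals that overlapped the mesenchymal one. In 1 T or NK cluster Lif was at 7.63 CPM in 150 injured cells and at 33.0 CPM, from 13 UMIs, in 38 uninjured cells.

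Osm, which encodes oncostatin M, was the myeloid ligand of its family. Phagocytes had 65.9 CPM in the injured and 23.9 CPM in the uninjured library, 2.76-fold apart (interval 2.34 to 3.26), with an Osm UMI in 10.7% and 5.21% of cells. Neutrophils had 165 CPM and 21.5% of cells, and dendritic cells 32.3 and 3.17 CPM. Phagocytes, deeper and more numerous than neutrophils, held 67.3% of the injured library's Osm UMIs and neutrophils 21.1%. Monocytes had 103 and 47.2 CPM, the macrophage cluster 44.6 and 30.9 CPM, and the Mrc1 and Cd163 cluster 28.2 and 7.47 CPM, so Osm was higher after injury in each, by 2.18-fold, 1.44-fold and 3.78-fold.

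Osmr, the subunit that oncostatin M binds beside gp130, lay in classes with little Osm. After injury pericytes or smooth muscle cells had 134 CPM against 96.02 CPM, and mesenchymal cells 70.3 against 49.7 CPM. Vascular endothelial cells had less, at 94.97 against 152 CPM, which is 0.624-fold (interval 0.598 to 0.651). Lymphatic endothelial cells had 29.5 against 139 CPM, and their share with an Osmr UMI was 6.17% against 17.5%. The order therefore changed, from vascular and lymphatic endothelium first in the uninjured library, with overlapping intervals, to pericytes or smooth muscle cells first in the injured one. The direction was the same within the Selp and Ackr1 cluster, at 162 and 212 CPM (0.76-fold), and within the cycling cluster, at 42.1 and 63.5 CPM (0.66-fold). It was the opposite within the Cd36 and Gpihbp1 cluster, at 170.3 and 148 CPM. The Plvap and Aplnr cluster also went the opposite way, at 83.5 and 56.1 CPM (1.49-fold). With 497 cells it was the largest vascular cluster of the injured library. The Rgs5 cluster of pericytes or smooth muscle cells had 136 and 88.7 CPM. Phagocytes had 1.69 CPM of Osmr and neutrophils 2.37 CPM, and few cells held UMIs of both Osm and Osmr. At 2000 UMIs it was 0 of 2539 injured phagocytes and 0 of 970 neutrophils, and at 5000 UMIs 8 of 2400 injured phagocytes (0.333%). These shares limit cells with a UMI of both at that depth, not cells that express both.

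**Figure D5:**
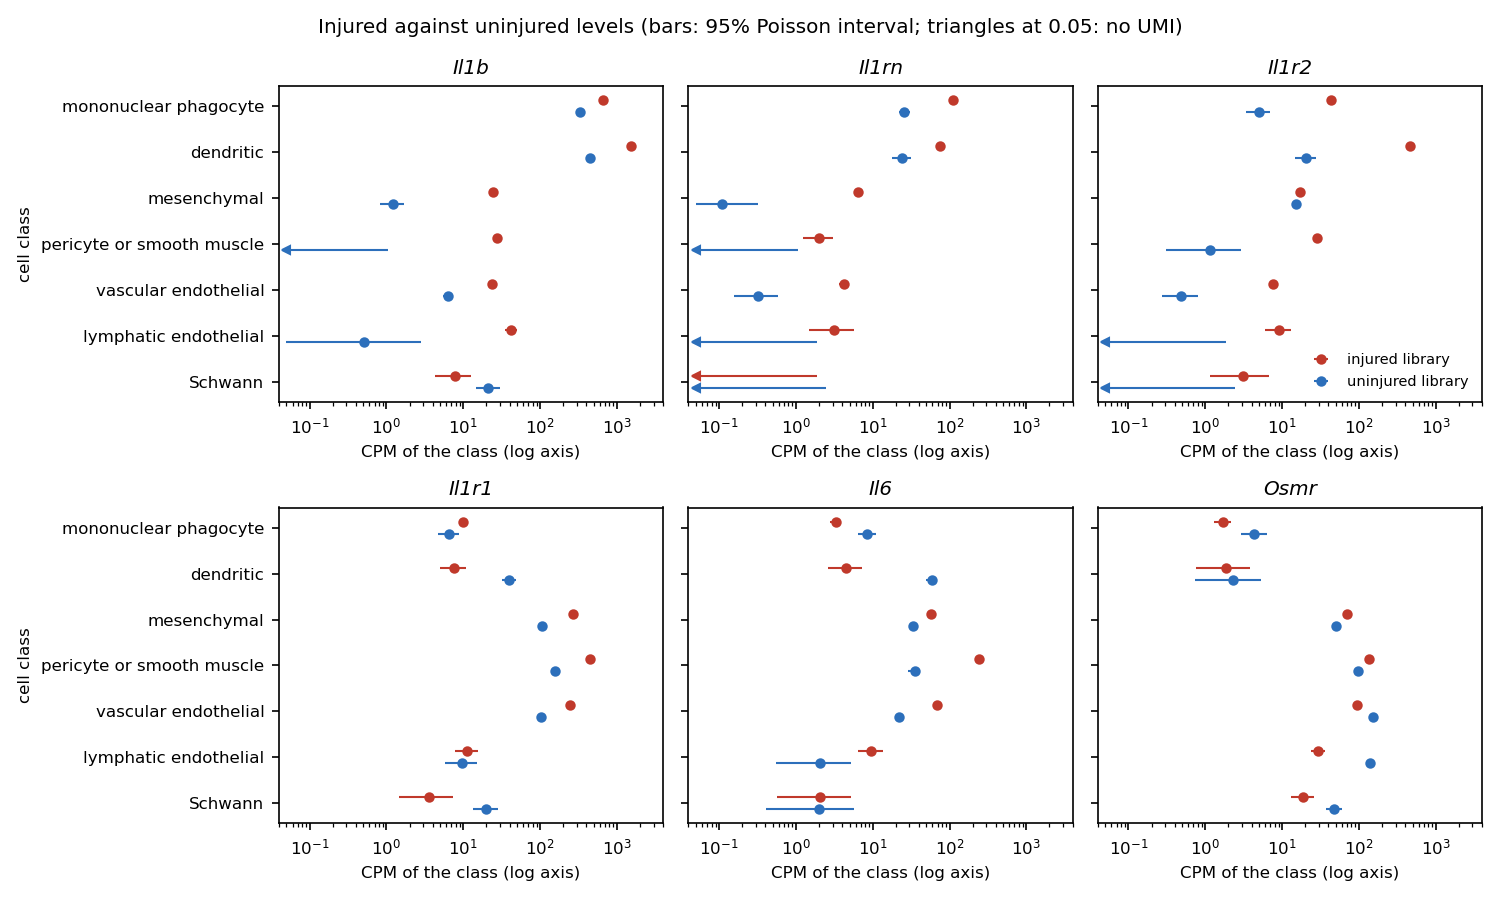
Level of 6 members in CPM (log axis) in the injured (red) and uninjured (blue) library by cell class, with exact 95% Poisson intervals as bars and triangles for classes with no UMI. The intervals of Il1r1 and Il6 stand apart in mesenchymal, pericyte or smooth muscle and vascular endothelial cells, with the injured library higher, and Osmr is lower after injury in vascular and lymphatic endothelial cells and, over 2 clusters that differ in direction, in Schwann cells.

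By class, the members past 2-fold were few and mostly higher. The shares of all genes set beside them are over genes at 50 CPM or more in a library, a floor not set for the members. At 10 CPM or more, 2 of 5 members were higher in mesenchymal cells and 3 of 4 in phagocytes. It was 3 of 4 in vascular endothelial and 4 of 5 in pericyte or smooth muscle cells. The shares of all genes at 10 CPM are given with the NF-kappaB list. In mesenchymal cells 3 were higher (Il1b, Il1r1 and Il1rn) and 0 lower, where 5.31% of 3898 genes were higher and 8.83% lower. The Il1rn call rested on 694 injured and 3 uninjured UMIs at 6.36 and 0.109 CPM, beside the neutrophil and phagocyte levels given with that gene. In phagocytes 3 were higher (Il1r2, Il1rn and Osm) and 0 lower, where 4.38% of 3857 genes were higher and 4.54% lower. In vascular endothelial cells 4 were higher (Il6, Il1b, Il1r1 and Il1r2) and 0 lower, where 4.74% of 4054 genes were higher and 6.81% lower. Of these 4, only Il1b was left past 2-fold under the 2 settings named with Il1r1. In pericytes or smooth muscle cells 4 were higher (Il1b, Il6, Il1r2 and Il1r1) and 0 lower, where 7.4% of 4067 genes were higher and 8.14% lower. Their Il1r2 rested on 300 injured and 4 uninjured UMIs. The Il1b calls of these 3 stromal and endothelial classes concern the low levels set beside S100a8 and S100a9 above. That of the vascular class also concerns the cycling cluster, which by itself was 1.14-fold apart.

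Dendritic cells had 4 members higher (Il1r2, Osm, Il1b and Il1rn) and 2 lower (Il6 and Il1r1), where 7.13% of 3616 genes were higher and 7.25% lower. Lymphatic endothelial cells, 84 in each library, had 3 higher (Il1b, Il6 and Il1r2) and Osmr lower, where 12.6% of 4506 genes were higher and 12.6% lower. Those 3 rested on few cells: 10 cells held 97.1% of the 136 injured Il1b UMIs, 28 of the 31 Il6 UMIs lay in 1 cell, and 20 of the 29 Il1r2 UMIs lay in 1 cell. Il6 and Il1r2 did not reach 10 CPM in lymphatic endothelial cells of either library. Schwann cells had 0 higher and 3 lower (Il1b, Il1r1 and Osmr), where 13% of 4499 genes were higher and 11.5% lower, and 29 of their 32 uninjured Il1b UMIs lay in 1 cell. The libraries filled different Schwann clusters, with 70 of the 100 injured cells in one and 120 of the 168 uninjured cells in the other. Osmr was at 16.0 and 138 CPM in the former and at 36.7 and 14.4 CPM, the other way, in the latter, the last pair from 9 and 16 UMIs. Il1r1 too was lower in the former (3 and 20 UMIs) and not in the latter (4 and 10 UMIs, 16.3 and 9.02 CPM).

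The receptor partners of the members had patterns of their own. Il1rap, the accessory chain that IL1R1 needs, was at 55.6 and 22.7 CPM over all cells, 2.45-fold apart. It was at 25.7 and 28.9 CPM in injured and uninjured mesenchymal cells at 28.5 and 28.8 CPM in pericytes or smooth muscle cells, at 18.6 and 10.1 CPM in vascular endothelial cells and at 322 and 157 CPM in Schwann cells, while neutrophils had 1353 CPM. Il6st was at 205 and 187 CPM in mesenchymal, 296 and 236 CPM in vascular endothelial and 282 and 165 CPM in pericyte or smooth muscle cells. Il6ra, the specific IL6 receptor, was at 9.15 and 40.6 CPM in mesenchymal cells and at 134 and 266 CPM in phagocytes. In mesenchymal cells it was below Il6 after injury (56.8 CPM of Il6) but above it without injury (33.9 CPM of Il6). Lifr was lower after injury in mesenchymal cells (21.6 and 60.7 CPM) and in phagocytes (89.5 and 335 CPM). Il11ra1 was mainly mesenchymal, at 251 and 308 CPM. Cells with both Il1r1 and Osmr UMIs were more frequent after injury, at 5.37% and 1.69% of mesenchymal, 8.43% and 3.81% of vascular endothelial and 9.91% and 4.93% of pericyte or smooth muscle cells. Such shares move with the share of cells holding each gene, and that of Il1r1 was itself higher after injury. They were not set against the share expected from the 2 genes apart.

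Genes known to respond to IL1 and NF-kappaB were described in each class, whether or not it carried Il1r1. Of the genes at 10 CPM or more, 8 of 17 were more than 2-fold higher and 0 lower in mesenchymal cells, among them the acute-phase gene Saa3 (103 and 0 CPM), the chemokine genes Ccl2 (145 and 15.2 CPM) and Cxcl2 (50.02 and 3.02 CPM) and the adhesion gene Vcam1 (133 and 25.3 CPM). Of all 9452 genes tested there, 4.24% were higher and 6.91% lower. In pericytes or smooth muscle cells 6 of 13 were higher and 0 lower, where 6.88% of 9653 genes were higher and 6.35% lower. In vascular endothelial cells 4 of 14 were higher (among them Cxcl2 at 44.2 and 4.67 CPM and Ccl2 at 21.1 and 3.32 CPM) and 0 lower, where 4.85% of 9219 genes were higher and 4.36% lower. In phagocytes 4 of 16 were higher (among them Ptgs2, the inducible cyclooxygenase, at 111 and 26.3 CPM) and 0 lower, where 3.13% of 8669 genes were higher and 4.64% lower. In Schwann cells, with little Il1r1, 5 of 13 were higher and 0 lower, where 11.6% of 9972 genes were higher and 9.33% lower. In dendritic cells 3 of 14 were higher and 2 lower, where 5.98% of 8345 genes were higher and 6.46% lower. In lymphatic endothelial cells 3 of 14 were higher and 5 lower, where 10.6% of 9675 genes were higher and 10.3% lower. The median log2 ratio of the list was 0.80 in mesenchymal, 0.97 in pericyte or smooth muscle, 0.61 in vascular endothelial cells and 0.07 in phagocytes. Cxcl2 is also among the leading genes of neutrophils, and the part of free RNA in it was not tested.

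STAT3 response genes, which lie downstream of Il6, Lif, Il11 and Osm, had fewer members past 2-fold in mesenchymal cells. The shares of all genes past 2-fold are those printed with the NF-kappaB list. In mesenchymal cells 2 of 13 were higher (Serpina3n at 183 and 46.7 CPM, Il4ra at 81.8 and 28.7 CPM) and Cebpd was lower (201 and 501 CPM). In vascular endothelial cells 4 of 13 were higher, among them Lrg1 at 755 and 210.1 CPM and Timp1 at 70.8 and 5.80 CPM, and 0 were lower. In pericytes or smooth muscle cells 4 of 12 were higher and 0 lower, with a median log2 ratio of 0.51, and in phagocytes 2 of 12 were higher and 0 lower. Lymphatic endothelial cells had 1 of 13 higher and 8 lower, with a median of -1.06. Dendritic cells had 1 of 11 higher and 1 lower, and Schwann cells 3 of 12 higher and 2 lower. The feedback inhibitor Socs3 stayed within 2-fold, at 71.6 and 97.3 CPM in mesenchymal and 197 and 176 CPM in vascular endothelial cells. Of the signalling genes of the IL1 pathway 0 of 16 passed 2-fold in mesenchymal cells, 0 of 20 in phagocytes and 1 of 16 in vascular endothelial cells (Aim2, at 25.1 and 4.80 CPM). In pericytes or smooth muscle cells 2 of 16 did, both higher (Nfkb1 at 346 and 135 CPM and Irak3 at 83.2 and 39.03 CPM). No JAK or STAT gene did in these 4 classes. Among other IL1 family genes, mesenchymal cells had more Il1rl1, the IL33 receptor (77.6 and 1.53 CPM), and Il33 itself (113 and 50.7 CPM), 2 of 5 measured, and phagocytes had more Il18bp (21.2 and 6.06 CPM) and less Il1rl1 (2.28 and 25.8 CPM).

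The genes most like each member were sought over 18 sums of a cell class in a library, among 10953 genes, by Pearson's r of log2 levels. The sums share their library, differ in depth and share marker genes by construction, so r is only a description. Il1r1 and Il6 were each other's nearest gene, at 0.874. Il1b was nearest to Cd14 (0.970), Il1rn to Sirpb1c (0.960), Il1a to Padi4 (0.980), Il1r2 to D8Ertd738e (0.936), Osm to Clec4n (0.972) and Osmr to Tcf7l1 (0.963). Il11 and Lif were under 20 CPM in every sum and were left out.

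Both libraries held cells of both sexes, so the leading results could be read in cells marked by Xist and in cells marked by Y-linked genes. Il1r1 in mesenchymal cells was at 222 and 99.4 CPM in Xist-marked and 323 and 119 CPM in Y-marked cells. In pericytes or smooth muscle cells it was at 395 and 150 CPM and at 500.5 and 173 CPM, higher after injury in both. Il6 in pericytes or smooth muscle cells was at 218 and 23.1 CPM and at 287 and 50.7 CPM. In mesenchymal cells Il6 was at 40.9 and 36.3 CPM in Xist-marked and at 72.1 and 31.1 CPM in Y-marked cells, so that the difference was larger in the Y-marked cells. Mesenchymal Il11 was not higher after injury in Xist-marked cells, at 3.16 and 3.67 CPM, but was in Y-marked cells, at 9.14 and 3.75 CPM. Lif was higher in both, at 5.64 and 1.96 CPM and at 10.5 and 3.54 CPM.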

How the data were processed

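Transcripts were measured by 10x single-cell RNA-seq in 2 libraries. The authors deposited raw UMI counts per gene and cell, made with Cell Ranger 5.0.1 on mm10, per the submitters' processing notes. UMIs count transcript ends, so no length scaling was used. Cells needed at least 500 genes and no more than 10% mitochondrial UMIs, and Scrublet scores above 0.2 were removed (202 injured and 58 uninjured cells, since the automatic threshold marked 1 and 3). Cells of both libraries were clustered together (2000 variable genes, 30 components, Leiden at 0.8). The variable genes left out the members and all genes of the pathway lists. The tools were scanpy 1.11.5, igraph 0.11.9, scikit-learn 1.9.0, numpy 2.4.6, scipy 1.17.1 and Python 3.11.15. Clustering gave 38 clusters, named from 23 marker lists. A cluster needed 3 markers in 10% of its cells and stayed unnamed if shallow or close to a rival list. The mesenchymal class joins fibroblast, tenocyte, chondrocyte, osteoblast and synovial names, and mononuclear phagocytes join macrophage, monocyte and osteoclast-like names. The doublet threshold and these naming rules were set after seeing the data. The members and lists were chosen with earlier results of these data known.

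UMIs were summed per class and library and given as CPM of the class, with exact Poisson intervals, and shares of cells with Clopper-Pearson intervals. Log2 ratios used log2(CPM + 5). A member counted as past the limit at over 2-fold. A fold against 0 used 3 counts as the floor. The text names all 10 members, leading genes past 2-fold of each list, and for each member above 20 CPM the most similar gene. With 1 library per group there is no test, and the spread between animals is unknown. Alternatives were the pseudocount, scale, mitochondrial limit, doublets, depth, cell averaging, sex-marked cells, clustering and thinning. The steps were checked on simulated data. Of all barcodes, 7.49% (injured) and 26.4% (uninjured) exceeded the mitochondrial limit.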

Additional observations from a re-analysis of the deposited data

Results flagged for a closer look

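The log2 ratio of Il1r1 went up in pericytes or smooth muscle cells (1.47) and down in dendritic cells (-1.84). Il6 did the same, at 2.64 and -2.73. These are opposite directions in 2 cell classes under the same contrast, with 1 library per group, and the difference between the classes was not tested. The dendritic values rest on 28 and 88 UMIs of Il1r1 and on 17 and 129 UMIs of Il6, most of them in 10 uninjured cells.

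The 1527 injured barcodes removed by the filters, which enter no comparison, carried 283 CPM of Il1b from 3900 UMIs, against 361.8 CPM in the kept injured cells. The 2148 removed uninjured barcodes carried 45.2 CPM, against 39.2 CPM in the kept ones.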

How the results depend on the processing

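Calls past 2-fold, other than those in Schwann cells, were recomputed under each alternative. They kept direction and side of the limit in 39 of 40 values over all cells, 33 of 33 in mesenchymal cells, 33 of 33 in phagocytes, 44 of 44 in pericytes or smooth muscle cells, 36 of 44 in vascular endothelial cells, 57 of 60 in dendritic cells and 38 of 44 in lymphatic endothelial cells. The pericyte, dendritic and lymphatic alternatives were added after seeing the data. With 1 CPM added, the members past 2-fold went from 3 to 6 in mesenchymal cells and from 3 to 6 in phagocytes, which had 5 among Y-marked cells. Vascular endothelial cells went from 4 to 1 with the 20% mitochondrial limit. They also went from 4 to 1 with the members and pathway genes among the clustering genes. In both settings the Cd36 and Gpihbp1 cluster became unnamed (1167 and 1089 of its 1176 uninjured cells). The log2 ratio of Il6 in lymphatic endothelial cells reversed to -0.59 in Xist-marked cells, and that of Il1b to -0.26 in Y-marked cells. Over all cells Il1r1 was 0.67 with cells averaged. In dendritic cells Il1r1 was -0.82 with doublets kept and Il6 was -0.88 in Y-marked cells. The median gene used for scaling had a log2 ratio of -0.125 in mesenchymal cells and of less than 0.1 in size in the other classes. Scaling by it therefore raised the mesenchymal ratios. No paired analysis was possible because each group is 1 library. Depth limits Il1a, Il11 and Lif, which most classes held at a few UMIs.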

Other observations

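Mast cells, 33 in the injured and 6 in the uninjured library, were too few for the comparisons but carried Il6 and Osm at high levels. Injured mast cells had 429 CPM of Il6 from 95 UMIs, 285 CPM of Osm from 63 UMIs and 348 CPM of Il1b from 77 UMIs. Uninjured ones had 285 CPM of Il6 and 285 CPM of Osm, from 12 UMIs each. Fibroblast markers summed to 9280 CPM in the injured mast cells, and their part in the Il6 level was not tested. The 4 uninjured neutrophils held 91 Il1b and 67 Il1r2 UMIs, or 2822 and 2078 CPM.

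A cluster left without a name because it held both pericyte and vascular markers, with 114 injured and 231 uninjured cells, had 257 and 87.0 CPM of Il1r1 and 117 and 47.1 CPM of Il6. Satellite cells of the uninjured library had 54.9 CPM of Osmr and 24.2 CPM of Il1r1.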
